A study of Homo sapiens with 49 samples.

Results

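The regions described here were H3K4me3 peaks of vehicle-treated cells that shared at least 1 bp with a H3K27me3 peak of the same cell line, and they are called overlap regions below. On chromosomes 1 to 22 and X, 1762 of 29594 H3K4me3 peaks met this rule in Ishikawa cells and 5931 of 30769 in T-47D cells. Joined across the lines they formed 7218 separate regions, out of 35871 H3K4me3 regions in all. They were chosen by the H3K4me3 and H3K27me3 lists of the vehicle condition, so values from those lists are given as descriptions, and the other libraries are the measurements that the rule did not use.

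Ishikawa is a human endometrial adenocarcinoma line and T-47D is a human breast carcinoma line, and each was held in hormone-depleted medium before treatment. Cells received vehicle (DMSO) or 17beta-estradiol (E2) at 10 nM, for 8 h before ChIP-seq of histone marks and for 1 h before ChIP-seq of c-JUN, LSD1, MAX, c-MYC, RARA, TAF1 and, in T-47D, RNA polymerase II (RNAPII). SIN3A was profiled in stripped medium and in full medium. Of 49 samples, 45 had a peak list, and all groups had 1 library except RNAPII in T-47D, with 2 replicates per treatment. Each line is a single cancer line, and the groups of a line therefore share its genome and copy number. The lists held between 2 peaks (Ishikawa c-MYC with E2) and 46280 peaks (RNAPII with E2, replicate 1), and several stood apart by their length. The H3K27me3 list of E2-treated T-47D cells held 99 peaks against 6301 with DMSO, the T-47D LSD1 list with DMSO held 37 and the Ishikawa c-MYC list with DMSO held 50. Leaving out the overlap regions touched by these short lists left 1758 and 5928 of them.

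H3K4me3 is deposited at the start of genes by the SET1 and MLL complexes and is found at promoters that are active or poised. H3K27me3 is deposited by EZH2 in Polycomb repressive complex 2 and is known for broad domains over silent genes. In embryonic stem cells the marks are found together at CpG-rich promoters of developmental regulators such as HOX, SOX and PAX genes, a state called bivalent, where RNAPII is low. TAF1 is the largest subunit of TFIID, the complex that binds core promoters and helps to assemble RNAPII there.

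Stretches of sequence from the H3K27me3 peaks are shown as examples of CpG content and position at single peaks. They belong to regions ranked high by H3K27me3 fold enrichment, namely a region of both lines in GSE1, the first of Ishikawa only (near TCL1B), and the first developmental regulator of each line (HES2 in Ishikawa, SEMA3C in T-47D). Each run is 200 bases of the plus strand of hg19 at or near the H3K27me3 summit, and capitals mark CpG dinucleotides.
GSE1 H3K27me3 peak (chr16:85603382-85603581): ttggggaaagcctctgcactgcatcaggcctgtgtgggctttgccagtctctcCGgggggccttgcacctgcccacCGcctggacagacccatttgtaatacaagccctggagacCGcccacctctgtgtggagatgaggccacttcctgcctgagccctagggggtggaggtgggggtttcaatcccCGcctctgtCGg
TCL1B H3K27me3 peak (chr14:96133749-96133948): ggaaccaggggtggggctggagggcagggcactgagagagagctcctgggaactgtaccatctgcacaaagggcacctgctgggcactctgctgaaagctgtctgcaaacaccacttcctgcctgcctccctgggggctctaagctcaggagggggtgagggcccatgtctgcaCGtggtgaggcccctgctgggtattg
HES2 H3K27me3 peak (chr1:6483443-6483642): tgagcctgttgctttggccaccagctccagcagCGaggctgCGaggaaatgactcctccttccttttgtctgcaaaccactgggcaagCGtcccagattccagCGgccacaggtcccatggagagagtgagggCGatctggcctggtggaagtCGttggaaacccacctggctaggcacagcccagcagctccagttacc
SEMA3C H3K27me3 peak (chr7:80548548-80548747): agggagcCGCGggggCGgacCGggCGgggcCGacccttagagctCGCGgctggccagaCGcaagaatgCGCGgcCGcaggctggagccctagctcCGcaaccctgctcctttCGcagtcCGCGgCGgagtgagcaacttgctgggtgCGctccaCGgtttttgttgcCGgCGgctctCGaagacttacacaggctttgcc

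The GSE1 and HES2 stretches lay in introns of those genes and held 5 and 6 CpG dinucleotides. HES2 belongs to the hairy and enhancer of split family. The stretch near TCL1B, in an intron of the non-coding gene TCL6 and 18606 bp from the nearest protein-coding start site, held 1. By contrast the SEMA3C stretch, from an intron of the longest transcript of this secreted semaphorin, held 22. At SEMA3C the H3K27me3 summit lay 281 bp outside the H3K4me3 peak, so that the peaks shared 75 bp and none of the printed bases lie in the H3K4me3 peak.

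Most overlap regions belonged to 1 line. Regions found in both lines numbered 368 (5.10%), 1394 (19.3%) were found in Ishikawa only and 5456 (75.6%) in T-47D only. For scale, overlap regions were 5.95% of all Ishikawa H3K4me3 peaks and 19.3% of all T-47D ones. Whether more regions were in both lines than these shares alone would give was not tested. Among the T-47D-only regions, 92.0% also carried an Ishikawa H3K4me3 peak and 88.9% an Ishikawa TAF1 peak, while the Ishikawa H3K27me3 list was the shorter of the pair. Of the Ishikawa-only regions, 20.2% carried a T-47D H3K4me3 peak and 2.58% a T-47D TAF1 peak. Over all H3K4me3 peaks of the line itself, TAF1 was at 66.7% in Ishikawa and 16.8% in T-47D. The share of all H3K4me3 peaks of a line that carried H3K4me3 in the other was not counted. The H3K27me3 lists held 2193 peaks in Ishikawa and 6301 in T-47D, and 81.7% and 85.7% of these peaks lay at H3K4me3. Shortening the T-47D list to the Ishikawa length by −log10 q left 215 regions in both lines.

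The H3K27me3 peaks were narrow as called. The lists are of a narrow-peak layout with a summit per peak, and no signal track was examined. They therefore cannot show whether H3K27me3 also lay in broad domains. Their median width was 238 bp in Ishikawa and 317 bp in T-47D, and the widest in the lists spanned 937 and 1666 bp. Fold enrichment, the height of a peak over its control as the peak caller gave it, ranged in the overlap regions from 3.44 to 32.8 in Ishikawa (median 9.05) and from 3.40 to 22.97 in T-47D (median 7.67). At the edge of the rule, 68 Ishikawa and 325 T-47D overlap regions shared under 50 bp with H3K27me3, the smallest sharing 2 and 1 bp. Just outside it, 293 and 1569 other H3K4me3 peaks lay within 250 bp of a H3K27me3 peak. The H3K4me3 peaks of overlap regions had a median width of 902.5 bp in Ishikawa, against 646 bp for other H3K4me3 peaks, and of 751 bp in T-47D, against 380 bp.

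Position relative to genes differed between the DMSO lists of the lines. In T-47D, 4558 overlap regions (76.9%) lay within 250 bp of a protein-coding start site, against 56.1% of all H3K4me3 peaks. In Ishikawa, 474 (26.9%) did so, against 55.7% of all H3K4me3 peaks. The Ishikawa regions thus lay mostly away from start sites, at a median distance of 8805 bp, and 48.1% were over 10 kb away, whereas the T-47D median distance was 0 bp. By class, 70.9% of the regions of both lines, 15.5% of the Ishikawa-only and 78.0% of the T-47D-only regions were at a start site. With 1 library of each mark per line, these shares have no replicate check and were not tested. With H3K27me3 peaks of fold enrichment at least 10 alone, 10.2% of 658 Ishikawa and 67.8% of 906 T-47D regions were at a start site. The same rule on the E2 lists put 74.0% of 6811 Ishikawa regions at a start site.

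Among the 10 regions of both lines with the highest H3K27me3 (ranked by the lower of the values of the lines), only CHP1 and FAM43A were at a start site. The GSE1 region at chr16:85602703-85605424, 13130 bp from the nearest start site of this gene, had a H3K27me3 fold enrichment of 18.0 in Ishikawa and 18.8 in T-47D, TAF1 at 31.9 in Ishikawa and 4.11 in T-47D, and RNAPII at 30.1 and 8.90 with DMSO. At CHP1, a calcineurin-like calcium-binding protein gene, the values were 15.4 and 20.1 for H3K27me3, 33.1 and 4.87 for TAF1, and 65.4 and 24.97 for RNAPII with DMSO.

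HES1, a Notch-responsive repressor, had such a region 536 bp from its start site, at chr3:193852219-193853401, with H3K27me3 at 13.8 in Ishikawa and 16.1 in T-47D. TAF1 there was 13.3 in Ishikawa and was not called in T-47D with DMSO, and RNAPII was 62.0 and 19.9 with DMSO. A neighbouring T-47D peak over the HES1 start site itself carried H3K27me3 at 7.95, TAF1 at 5.93 and RNAPII at 52.4 and 16.3. Others among these 10 were near EMP2, TMEM184A, PXDN and PWWP2B, at FAM43A, and at a second GSE1 region. All 10 carried RNAPII in replicate 1 of each treatment, and the second GSE1 region was the exception in replicate 2 with DMSO, where no peak was called. Over all 368 regions of both lines, RNAPII was at 99.7% and 89.7% in replicates 1 and 2 with DMSO. With E2 it was at 99.5% and 94.8%, so these 10 were like the class.

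The Ishikawa-only regions with the highest H3K27me3 lay near TCL1B (fold enrichment 32.8), DNAJC5B (32.2), RPS21 (30.5), APBA1 (27.7) and SLC14A2 (25.6). All 5 were outside start sites, by 4855 to 22364 bp, and all 5 carried Ishikawa TAF1, between 18.8 and 33.3. Of all Ishikawa-only regions, 15.5% were at a start site and 90.5% carried Ishikawa TAF1. T-47D had no H3K4me3 peak with DMSO at any of the 5, but at DNAJC5B it had a H3K27me3 peak of its own (9.55) and RNAPII in all 4 libraries. Among T-47D-only regions the highest was at the start site of the zinc finger gene ZNF730, with H3K27me3 at 22.97, TAF1 not called with DMSO and at 9.38 with E2, and RNAPII at 39.0 and 7.76 with DMSO and 17.1 and 9.94 with E2. The next was a peak of the CHP1 and EXD1 start sites (20.1). It lies beside the CHP1 region of both lines, has the same T-47D H3K27me3 value, and had an Ishikawa H3K4me3 peak (12.8). After it came 3 adjacent H3K4me3 peaks about GSE1 that shared a single H3K27me3 peak (19.8).

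Developmental regulators were few. The list held 482 genes of the HOX clusters, other homeobox families, the SOX, FOX, GATA, TBX and ZIC families, basic helix-loop-helix factors, and developmental ligands and receptors. TFAP2A, TFAP2C, GLI3 and WT1 were counted with the SOX, FOX, GATA, TBX and ZIC factors. In Ishikawa, 292 of them had H3K4me3 at the start site and 7 (2.40%, 95% exact binomial interval 0.969 to 4.88%) were at overlap regions, beside 522 of 13160 (3.97%) for all protein-coding genes with H3K4me3. In T-47D, 187 had H3K4me3 and 38 (20.3%, 14.8 to 26.8%) were at overlap regions, beside 4339 of 12071 (35.9%) for all genes. The T-47D share was below that of all genes, and in Ishikawa the share of all genes lay inside the interval. The HOX clusters counted 0 of 29 genes in Ishikawa (a count of 0 allows up to 11.9%) and 5 of 13 in T-47D. Few start sites had H3K27me3 without H3K4me3. A H3K27me3 peak stood at the start site of 6 developmental regulators in Ishikawa and 35 in T-47D, of which 0 and 2 (5.71%) lacked H3K4me3 there. Over all protein-coding genes, 6 of 439 (1.37%) and 39 of 4320 (0.903%) did so. The intervals cover counting error only, and genes that share a peak are not independent. With the T-47D H3K27me3 list shortened to the length of the Ishikawa list, 14 developmental regulators (7.49%, 4.15 to 12.2%) were at overlap regions, beside 12.3% of all genes with H3K4me3. With the E2 lists of Ishikawa, 75 of 307 (24.4%, 19.7 to 29.6%) were, beside 38.8% of all genes.

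Housekeeping genes and Polycomb genes were counted beside these. Cytosolic ribosomal protein genes, which are highly transcribed in dividing cells, were at T-47D overlap regions in 58 of 83 cases (69.9%, 58.8 to 79.5%), and proteasome subunit genes in 17 of 37 (45.9%, 29.5 to 63.1%). Genes of Polycomb subunits themselves counted 9 of 26 (34.6%, 17.2 to 55.7%), among them EED, JARID2 and RNF2. Over all T-47D genes with H3K4me3 the share was 35.9%. The proteasome and Polycomb intervals hold it, and the ribosomal protein interval lies above it. In Ishikawa the corresponding counts were 3 of 83 ribosomal protein genes (3.61%), 2 of 36 proteasome genes and 3 of 27 Polycomb genes (MTF2, PHC3 and PHF1). The exact intervals of these Ishikawa shares all hold the 3.97% of all genes with H3K4me3 there. The H3K27me3 peaks were called as narrow peaks in both lines, which leaves broad domains unmeasured. Developmental regulators were not over-represented among the overlap regions of either. The T-47D regions were CpG-rich and mostly at promoters, as bivalent regions are. Their median observed over expected CpG at H3K4me3 summits was 0.725, though, against 0.660 for all T-47D H3K4me3 peaks. Most of them carried RNAPII (given further on), which was not measured here in Ishikawa. The regions are therefore called only by the rule that found them.

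**Figure D1:**
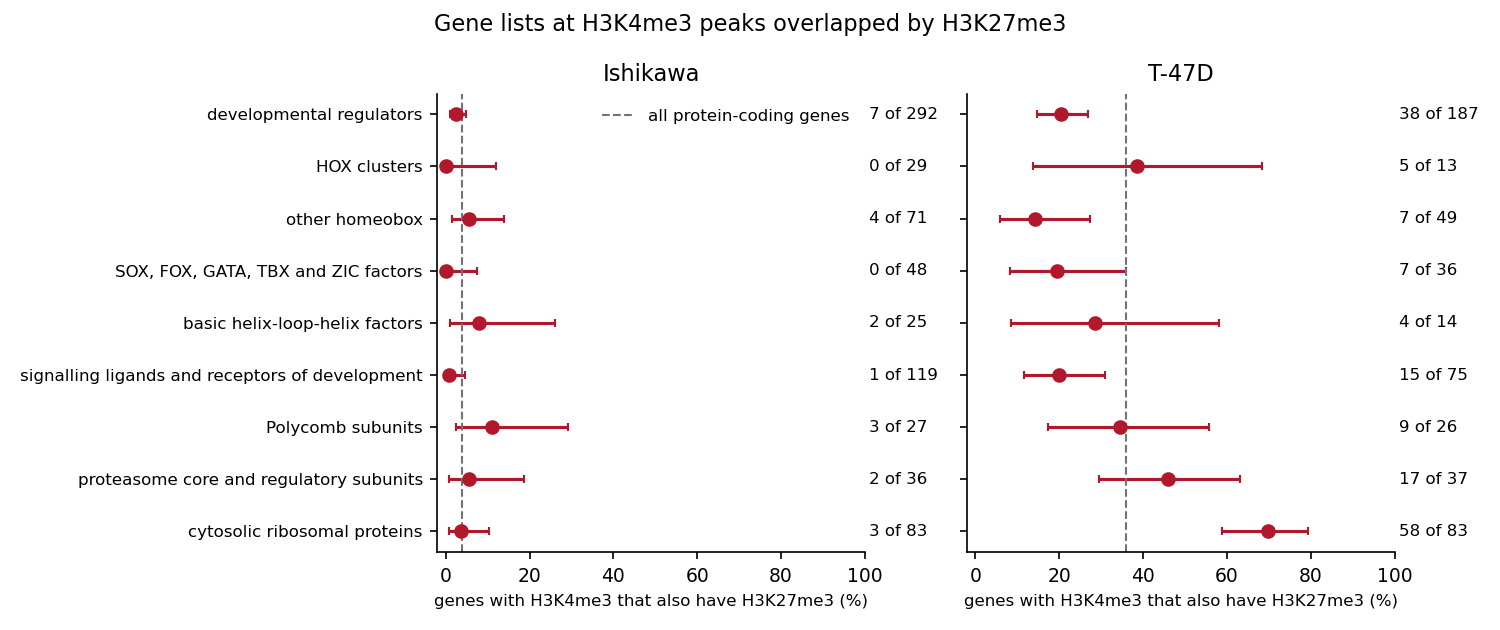
Share of the genes of each list with H3K4me3 at the start site that were at overlap regions (x axis, percent, with 95% exact binomial intervals), for Ishikawa (left) and T-47D (right); the dashed line is the share over all protein-coding genes and the counts stand at the right. Developmental regulators sat at 2.40% and 20.3%, beside lines at 3.97% and 35.9%, and ribosomal protein genes in T-47D at 69.9%.

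The 7 developmental regulators of Ishikawa were HES2, MEOX1, PITX3, OLIG1, INHBE, NKX1-2 and PAX8, at 8 H3K4me3 peaks. Their H3K27me3 fold enrichment ranged from 5.67 at PAX8 to 13.4 at HES2. TAF1 was at 7 of the 8 peaks (87.5%), against 98.1% of all Ishikawa overlap regions at start sites. PAX8, a Mullerian lineage factor that is expressed in endometrial carcinoma, combined the lowest H3K27me3 of the 8 peaks with TAF1 at 39.9, in a H3K4me3 peak 3224 bp wide at chr2:114033394-114036617. OLIG1, a factor of oligodendrocyte development, was the exception without TAF1, in a peak of 344 bp with H3K27me3 at 7.39. MEOX1, PITX3 and NKX1-2 are homeobox genes, and they carried H3K27me3 at 9.07, 8.65 and 6.80 with TAF1 at 14.5, 22.1 and 14.9.

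In T-47D the 38 genes had 48 H3K4me3 peaks. The highest H3K27me3 was at SEMA3C (14.8), followed by TFAP2A (12.03), GATA3 (11.0), HOXC13 (10.8), TFAP2C (10.7), HEY2 (10.4), MSX2 (10.4), DLX1 (10.4) and GLI3 (10.3). All 48 peaks had RNAPII in replicate 1 with DMSO, 34 in replicate 2, 43 in replicate 1 with E2 and 38 in replicate 2. The last 3 shares, 70.8%, 89.6% and 79.2%, were below those of all T-47D overlap regions, 83.6%, 97.8% and 90.8%. TAF1 was at 34 of the 48 (70.8%), above its 48.0% over all T-47D overlap regions. All 48 lay at start sites, where the T-47D overlap regions carried TAF1 in 56.4% of cases. RNAPII in replicates 1 and 2 with DMSO was at 99.9% and 89.1% of those start-site regions. The 237 other H3K4me3 peaks of developmental regulators had TAF1 in 8.44%. The 48 peaks were also wider than the 237, with a median of 1167.5 bp against 446 bp.

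GATA3 is a defining factor of luminal breast epithelium, and its promoter region held 4 of these peaks, with H3K27me3 between 8.44 and 11.0, TAF1 between 5.98 and 14.3, and RNAPII at 57.2 and 49.5 with DMSO. With DMSO, Ishikawa had neither H3K4me3 nor TAF1 at any of the 4, and with E2 it had a H3K4me3 peak at 1 of them (9.997). MSX2, a homeobox gene, carried H3K27me3 at 10.4, TAF1 at 16.2 and RNAPII at 113 and 24.7. The HOX genes at overlap regions were HOXC13, HOXC11, HOXC6 and HOXC9 of the HOXC cluster and HOXB2, in 4 peaks with H3K27me3 from 6.86 to 10.8, all with TAF1 (5.50 to 7.11) and RNAPII. Their RNAPII values in replicate 1 with DMSO ran from 19.1 at HOXB2 to 82.6 at HOXC11, and at HOXB2 no RNAPII peak was called in replicate 2 of either treatment.

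Of the 48 peaks, 5 (10.4%) were in a single RNAPII list and without TAF1 with DMSO, against 2.26% of all T-47D overlap regions in 0 or 1 lists without TAF1. They lay at WT1, BMP6, FGFR1 and, with 2 peaks, SEMA3D, genes that encode a zinc finger factor of the urogenital tract, a bone morphogenetic protein, a fibroblast growth factor receptor and a semaphorin. At WT1, chr11:32457180-32458040, H3K27me3 was 8.03 and the sole RNAPII value 10.9. For comparison, 103 of the 237 other H3K4me3 peaks of developmental regulators had no TAF1 and RNAPII in under 2 lists.

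Lineage factors were also counted. Among 10 luminal breast factors, all 10 had H3K4me3 in T-47D and 6 were at overlap regions, namely GATA3, TFAP2C, TRPS1, ESR1, PGR and ELF5 (95% exact interval of the share 26.2 to 87.8%, which holds the 35.9% of all genes). ESR1, which encodes the receptor for E2, carried H3K27me3 at 10.3 and RNAPII at 65.4 and 13.5 with DMSO and 30.8 and 18.9 with E2, without a TAF1 peak. PGR, a gene induced by E2 in breast cells, carried H3K27me3 at 9.25, TAF1 at 7.45, and RNAPII at 53.9 and 11.7 with DMSO and 34.9 and 24.99 with E2. In Ishikawa 0 of 7 luminal factors and, of the endometrial and Mullerian factors, 1 of 7 (PAX8) were at overlap regions. T-47D counted 2 of 6 from the second list (MSX2 and WT1, 4.33 to 77.7%). The intervals of the Ishikawa counts, up to 40.96% and 0.361 to 57.9%, hold the 3.97% of all genes there, and that of the T-47D count holds the 35.9%.

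TAF1 was more frequent at overlap regions than at other H3K4me3 peaks in both lines. In Ishikawa with DMSO, 1628 of the 1762 carried a TAF1 peak (92.4%, 95% exact binomial interval 91.1 to 93.6%), against 65.1% of other H3K4me3 peaks and 66.7% of all. In T-47D, 2844 of the 5931 did so (48.0%, 46.7 to 49.2%), against 9.38% of others and 16.8% of all. More than that, 55.2% of the whole T-47D TAF1 list lay at overlap regions, which made up 19.3% of the H3K4me3 peaks. Among the peaks that TAF1 overlapped, its median fold enrichment was 17.0 in overlap regions and 16.02 in others in Ishikawa, and 6.50 and 6.73 in T-47D. The Ishikawa list of TAF1 held 19348 peaks and the T-47D list 4587, so the levels of the lines are not comparable. In T-47D, 5402 H3K27me3 peaks lay at the 5931 overlap regions. Neighbouring regions can thus share a H3K27me3 or TAF1 peak, so they are not independent, and the intervals treat them as if they were. With TAF1 peaks of fold enrichment at least 10 alone, the shares were 79.0% in Ishikawa, against 50.6% of other H3K4me3 peaks and 52.2% of all, and 7.35% in T-47D, against 1.21% of others and 2.39% of all.

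**Figure D2:**
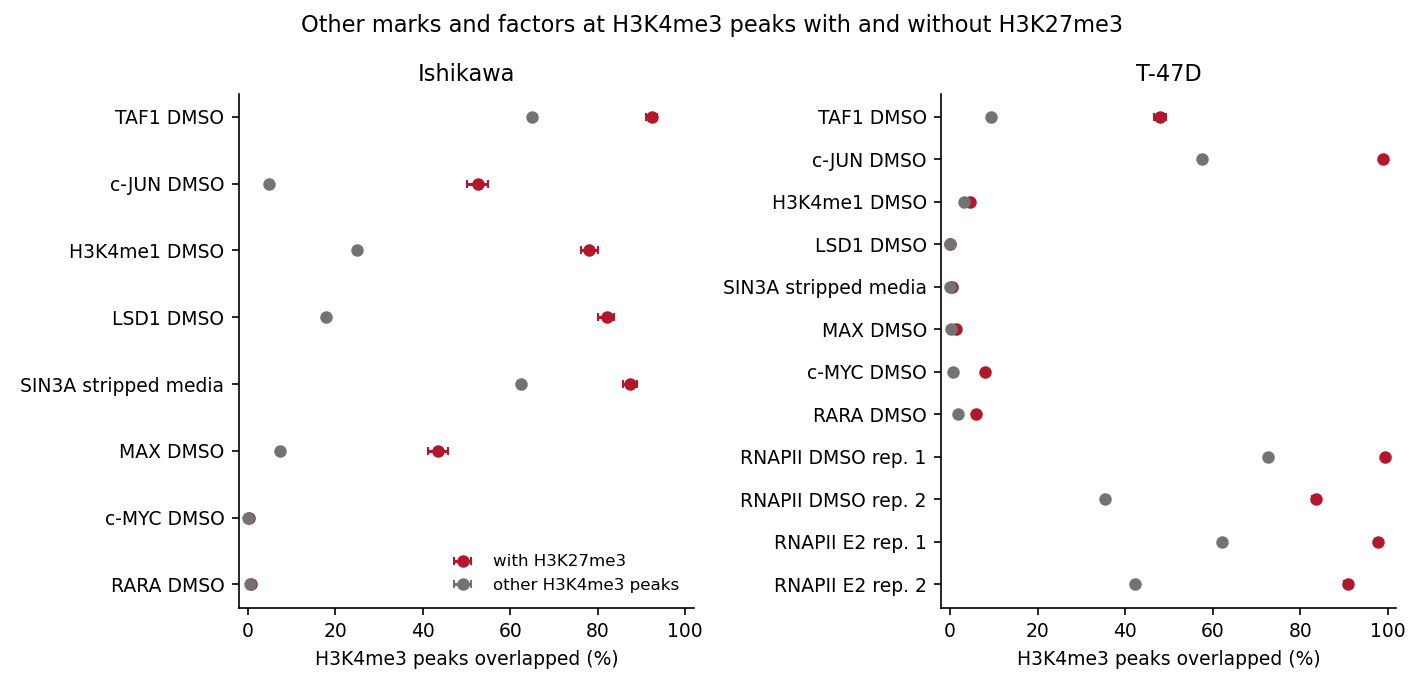
Percent of H3K4me3 peaks overlapped by each other library (x axis), for peaks with H3K27me3 (red) and all other H3K4me3 peaks (grey), in Ishikawa (left) and T-47D (right); bars are 95% exact binomial intervals, mostly smaller than the points. TAF1 stood at 92.4% against 65.1% in Ishikawa and 48.0% against 9.38% in T-47D, and each of the 4 RNAPII lists was higher at peaks with H3K27me3.

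Strong TAF1 at a start site in the Ishikawa overlap regions was found at LRP6, a Wnt coreceptor gene (fold enrichment 83.3, with H3K27me3 at 7.61), and SMTN, a smooth muscle gene (81.2 and 8.42). In T-47D the strongest was at the ribosomal protein genes RPS15 (36.1, with H3K27me3 at 15.1) and RPL37A (28.0 and 11.8) and at HNRNPH3, an RNA-binding protein gene (26.3 and 11.8). Start sites with high H3K27me3 and no TAF1 peak with DMSO were those of CALML4 (11.0), DLG4 (10.8) and GAL3ST2 (9.44) in Ishikawa. In T-47D they were ZNF730 (22.97), STX3 (21.2) and HEBP2 (18.7), and all 3 carried RNAPII in all 4 libraries, at 39.0 to 71.2 in replicate 1 with DMSO. Of all T-47D overlap regions, 82.8% did so. With E2 a TAF1 peak was called at DLG4 in Ishikawa (7.35) and at ZNF730 (9.38) and HEBP2 (6.05) in T-47D.

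RNAPII was called at nearly all T-47D overlap regions. With DMSO it was at 99.4% in replicate 1 and 83.6% in replicate 2, and with E2 at 97.8% and 90.8%. Other H3K4me3 peaks had it in 72.6% and 35.5% with DMSO and in 62.2% and 42.3% with E2. The replicates differed in list length (39368 and 21287 peaks with DMSO, 46280 and 23431 with E2), and within each list the overlap regions were higher. Both DMSO replicates called RNAPII at 4959 overlap regions (83.6%), against 44.2% of all H3K4me3 peaks. All 4 lists did so at 4913 (82.8%), against 32.2% of other peaks, and none of the 4 at 32.

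The fold enrichment of RNAPII was also larger in overlap regions among the peaks it overlapped. Its median in replicates 1 and 2 with DMSO was 56.6 and 14.1, against 44.8 and 12.3 at other H3K4me3 peaks, and with E2 it was 27.1 and 17.7, against 21.9 and 14.1. RNAPII in both DMSO replicates came together with TAF1 at 2787 overlap regions and without TAF1 at 2172, while 37 had neither TAF1 nor RNAPII in any DMSO library. Of the 135 in 0 or 1 RNAPII lists, 50 were at a start site, 43 were over 10 kb from any, and 1 carried TAF1.

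E2 was compared over the RNAPII libraries, the only replicated group. The mean share of overlap regions with RNAPII was 91.5% ± 11.1 with DMSO and 94.3% ± 4.90 with E2 (SD, n = 2 each). The difference, 2.82 percentage points, was smaller than the spread between replicates (exact two-sided permutation test over 6 assignments, p = 1, where the smallest possible p is 0.33). It was -1.60 between the replicates numbered 1 and 7.23 between those numbered 2. Nothing in the labels says whether replicates came from separate cultures, so this p measures only the spread between these samples.

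Since overlap regions were wider than other H3K4me3 peaks, the shares were also taken within 4 bins of H3K4me3 peak width, each with about the same number of peaks. In Ishikawa TAF1 was at 73.1% of overlap regions and 28.6% of other peaks in the narrowest bin, and at 99.0% and 96.1% in the widest. In T-47D the corresponding TAF1 shares were 20.9% and 3.04%, then 59.1% and 21.9%. RNAPII in both DMSO replicates was at 60.7% and 19.5% in the narrowest T-47D bin and at 90.8% and 61.1% in the widest. The overlap regions were higher in each of the 4 bins of both lines, with the smallest TAF1 gap in the widest Ishikawa bin. The bins do not match H3K4me3 strength. Its median fold enrichment was 13.3 at T-47D overlap regions and 10.3 at other peaks, and 15.1 and 15.2 in Ishikawa. The share of H3K4me3 peaks that were overlap regions was itself higher in wider bins, at 3.21% in the narrowest and 9.32% in the widest in Ishikawa and at 6.34% and 39.3% in T-47D.

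**Figure D3:**
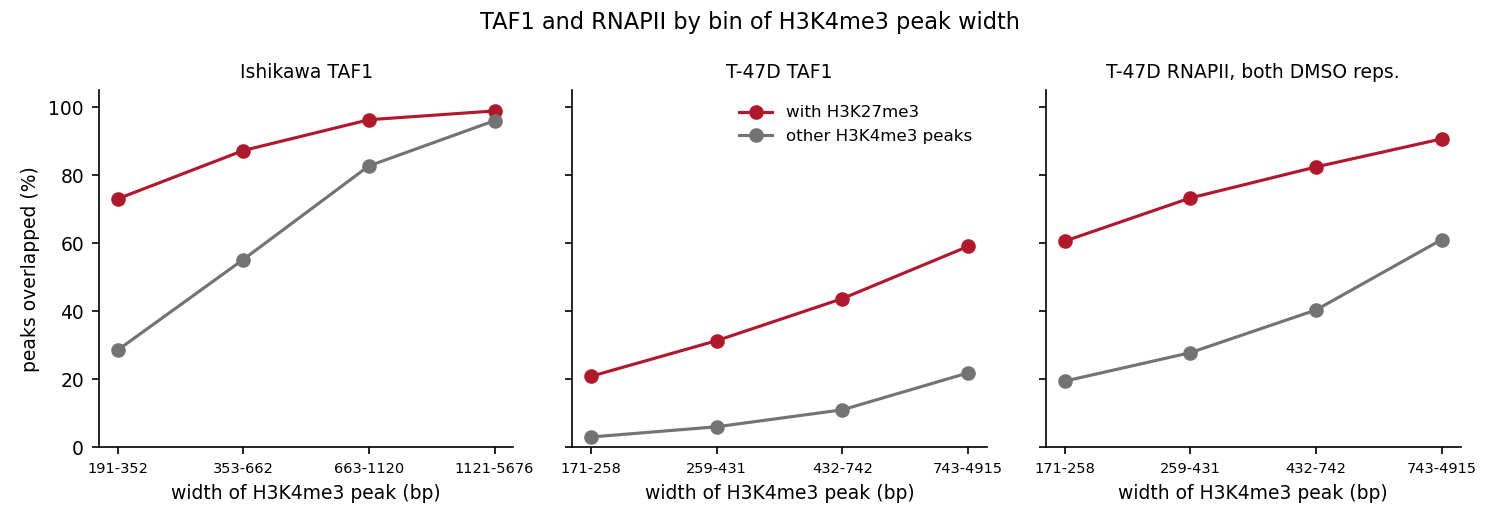
Percent of H3K4me3 peaks with TAF1 or with RNAPII in both DMSO replicates (y axis) by bin of H3K4me3 peak width in bp (x axis, 4 bins of about equal number), for peaks with H3K27me3 (red) and others (grey). Red points lie above grey in every bin, by 73.1% against 28.6% in the narrowest Ishikawa bin and 99.0% against 96.1% in the widest.

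The TAF1 contrast was also taken by location. In Ishikawa, overlap regions away from start sites carried TAF1 in 90.3% of cases, against 43.7% of other H3K4me3 peaks away from start sites. At start sites the values were 98.1% and 80.9%. In T-47D they were 56.4% and 16.2% at start sites and 20.0% and 2.28% away from them. RNAPII in replicate 1 with DMSO was at 99.9% of T-47D overlap regions at start sites and at 97.7% of those away, against 88.8% and 55.6% of other peaks.

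The remaining libraries set the lines apart. H3K4me1, a mark of enhancers and promoter flanks, was at 78.1% of Ishikawa overlap regions with DMSO, against 28.2% of all H3K4me3 peaks there, and at 4.50% in T-47D, against 3.51%. Away from start sites the Ishikawa share was 89.3%, against 45.5% of other H3K4me3 peaks there, and at start sites 47.7% against 9.97%. LSD1, a demethylase of H3K4me1 and H3K4me2, was at 82.0% in Ishikawa (21.7% of all H3K4me3 peaks), while the T-47D list, with 37 peaks, had 0 in these regions, which allows up to 0.0622%. The AP-1 subunit c-JUN was at 52.6% in Ishikawa (7.8% of all) and 99.0% in T-47D (65.6% of all). SIN3A, a corepressor scaffold, was at 87.5% of Ishikawa overlap regions in stripped medium, against 62.4% of other H3K4me3 peaks, and MAX, the partner of MYC proteins, at 43.5% against 7.41%.

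In T-47D the c-MYC lists and the MAX list with E2 fell largely into overlap regions. Of the 592 c-MYC peaks with DMSO, 72.1% were there, as were 60.7% of the 1811 with E2 and 59.7% of the 1490 MAX peaks with E2, while 36.5% of the 197 MAX peaks with DMSO were. The c-MYC lists with DMSO and E2 and the MAX list with E2 covered 7.96%, 20.1% and 17.5% of the overlap regions, against 0.596%, 2.19% and 2.40% of other H3K4me3 peaks. RARA, a retinoic acid receptor, was at 5.87% with DMSO, against 1.74%.

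Within overlap regions at start sites, the summits of H3K27me3 were centred near the start site, with a spread to both sides. Their median position was 7 bp upstream (-7) in Ishikawa and 9 bp downstream in T-47D, and 58.7% and 68.6% lay within 150 bp. The median position of H3K4me3 summits was further into the gene, at 106 and 111 bp, although 29.5% and 30.5% of them lay upstream. The median of TAF1 summits was at 11 and 9 bp, and 65.5% and 85.6% of them lay within 150 bp. RNAPII in replicate 1 with DMSO had its median at 19 bp. The median position of H3K27me3 summits was therefore closer to that of TAF1 than to that of H3K4me3, in regions picked for having the histone peaks. Distances between H3K27me3 and TAF1 summits of the same region were not taken.

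**Figure D4:**
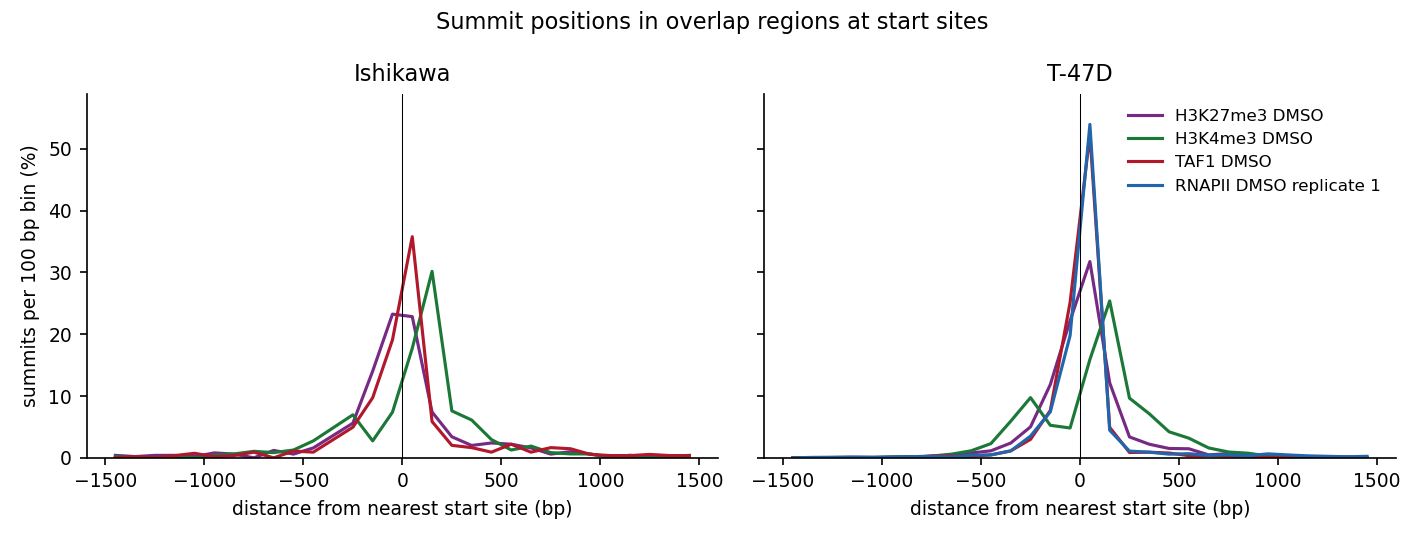
Position of peak summits relative to the nearest protein-coding start site (x axis, bp, positive in the direction of transcription) as percent of summits per 100 bp bin (y axis), in overlap regions at start sites of Ishikawa (left) and T-47D (right). H3K27me3 and TAF1 peak at the start site, with medians of -7 and 11 bp in Ishikawa and 9 and 9 bp in T-47D, and H3K4me3 peaks downstream, at 106 and 111 bp.

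CpG content at H3K27me3 summits differed between the DMSO lists of the lines. The ratio of observed to expected CpG, taken in windows of 300 bp on H3K27me3 summits, had a median of 0.354 for Ishikawa and 0.820 for T-47D. Ishikawa summits had a median of 0.781 within 250 bp of a start site and 0.303 away from it, against 0.671 at the H3K4me3 summits of all Ishikawa peaks. For T-47D the median at the H3K4me3 summits of all peaks was 0.660. At the H3K4me3 summits of overlap regions it was 0.335 in Ishikawa and 0.725 in T-47D. At the TAF1 summits of the whole DMSO lists it was 0.781 and 0.867. Motifs were searched on both strands as fixed letters, where N is any base. The AP-1 site TGANTCA was in 15.7% of the Ishikawa windows (18.1% of those away from start sites) and in 4.24% of the T-47D windows, against 5.80% and 5.01% at all H3K4me3 summits and 7.71% of RefSeq promoters of the same length (GRCh38.p14). The ETS site CCGGAAG was in 6.58% and 18.3%, against 6.16%, 5.98% and 10.3%. The windows compared here differ in the kind of summit they are centred on. At the H3K4me3 summits of overlap regions the AP-1 site was in 9.88% (Ishikawa) and 4.11% (T-47D), and the ETS site in 3.92% and 8.21%. At the TAF1 summits of the whole DMSO lists the ETS site was in 13.8% and 21.6%. For the NRF1 core CGCATGCG the shares were 1.00% and 2.44%, for CCAAT 24.1% and 26.0%, and for TATAAA 3.18% and 2.54%. At all H3K4me3 summits of Ishikawa and T-47D these motifs were in 0.767% and 0.670%, 20.8% and 21.6%, and 3.94% and 4.42%, and in RefSeq promoters in 2.02%, 34.6% and 11.5%.

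Chromosomes did not contribute evenly. In Ishikawa 13.2% of the H3K4me3 peaks of chromosome 10 and 14.4% of those of chromosome 12 were overlap regions, against 5.95% over all chromosomes and 0.374% on chromosome X, where 3 of 803 peaks were. Chromosomes 10 and 12 together held 178 and 224 of the 1762. TAF1 at all Ishikawa H3K4me3 peaks was at 64.8% and 66.8% on these chromosomes and 66.4% on X, close to the 66.7% overall. In T-47D the share ran from 5.18% on chromosome 13 to 27.2% on chromosome 12, and TAF1 was at 12.9% and 20.4% of all H3K4me3 peaks there. 

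**Figure D5:**
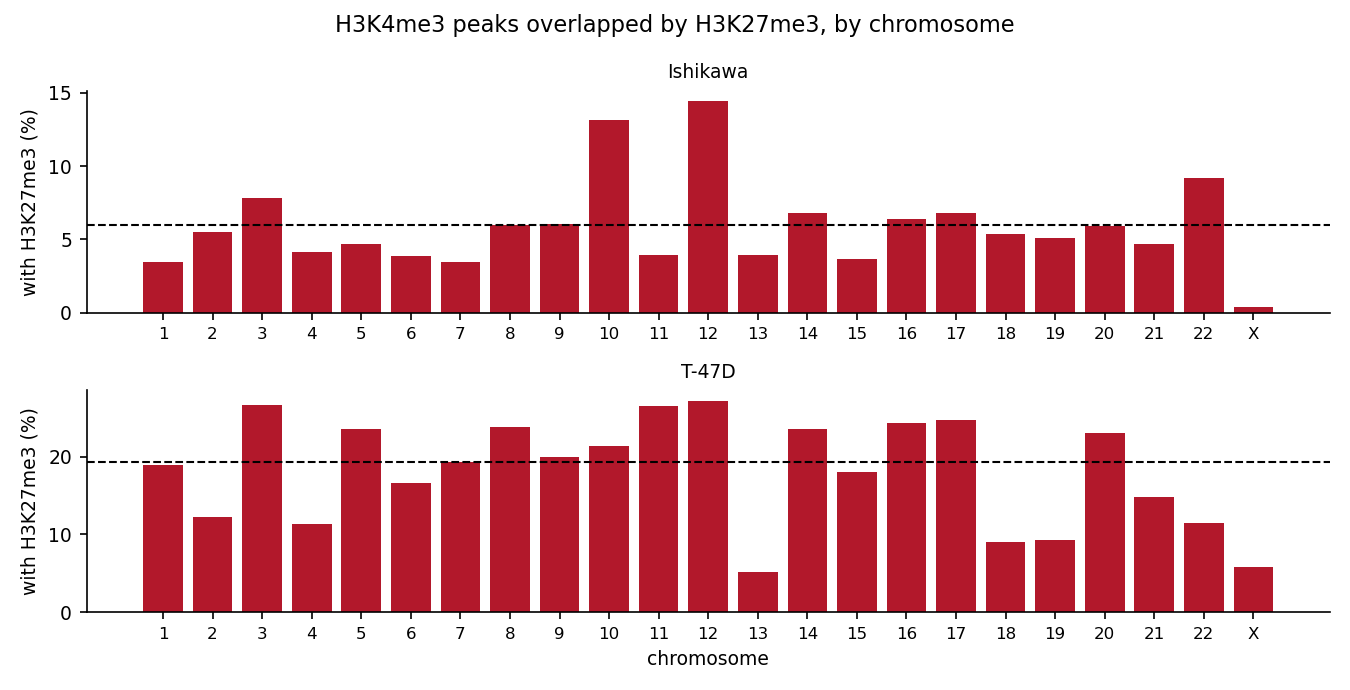
Percent of H3K4me3 peaks that overlapped H3K27me3 (y axis, bars) on each chromosome (x axis), for Ishikawa (top) and T-47D (bottom), with the share over all chromosomes dashed. Chromosomes 10 and 12 reach 13.2% and 14.4% in Ishikawa, X is at 0.374%, and T-47D runs from 5.18% on 13 to 27.2% on 12.

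The same rule applied to the lists of E2-treated cells found other numbers. Ishikawa had 6811 overlap regions with E2, of which 74.0% were at a start site, and 883 of the 1762 found with DMSO (50.1%) were among them. A H3K27me3 peak with E2 lay at 50.5% of the DMSO overlap regions, against 22.2% of all Ishikawa H3K4me3 peaks. In T-47D, where the H3K27me3 list with E2 held 99 peaks, 4 regions met the rule and 1 of the 5931 recurred. Without a second library of H3K27me3, treatment cannot be told apart from a difference between libraries.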

How the data were processed

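ChIP-seq was performed by the authors in Ishikawa and T-47D cells, and 45 of 49 samples had a peak list. The submitters' processing notes name Bowtie 1.1.2, MACS2 2.1.0.20140616 and hg19. Per the deposited lists, every peak has a score, a fold enrichment over control (a ratio), a −log10 p-value and a −log10 q-value, and a summit offset, and the lowest −log10 p over all lists was 10.0. Read depth is unknown from these lists, so list length, the 95% exact binomial intervals and any upper limit cover counting of peaks only.

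Peaks on chromosomes 1 to 22 and X were used. An overlap was 1 bp, and a region took the highest fold enrichment of the peaks it overlapped. Start sites were 78530 sites of 19748 protein-coding genes (GENCODE 44 on GRCh37), with 250 bp on either side. Sequence was read from GRCh37. Regions were named by H3K27me3 or TAF1 fold enrichment: the 10 highest of both lines, the 5 highest of each line alone, the highest developmental regulators and every HOX and lineage factor, and the 3 highest with and without TAF1. A few of these regions and sequences are not reported here. The members, gene lists and tests were chosen with earlier results of these data known. Groups with 1 library were not tested; RNAPII was tested by an exact permutation over 6 assignments, and by a paired one over 4. Pairing of the RNAPII replicates by number is not stated in the labels. Overlap counting was checked on simulated peaks and against bedtools. Python 3.11.15, numpy 2.4.6, pandas 2.3.3, scipy 1.17.1 and pysam 0.24.0 were used.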

Additional observations from a re-analysis of the deposited data

Results flagged for a closer look

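Several values moved in opposite directions in the lines, each with 1 library per group, and no such difference was tested. The number of overlap regions with E2 over that with DMSO was 1.95 on the log2 scale in Ishikawa and -10.53 in T-47D. The share of DMSO overlap regions with TAF1 changed, E2 minus DMSO, by -8.74 percentage points in Ishikawa and 9.83 in T-47D. The corresponding changes were -4.88 and 16.2 for MAX, 37.2 and -1.01 for RARA, 42.7 and -0.792 for c-JUN, and -0.0568 and 12.2 for c-MYC, in Ishikawa and T-47D respectively. For SIN3A, full minus stripped medium, they were -20.6 and 6.02. List lengths moved in the same direction as each of these shares in both lines, for example from 3763 to 18310 peaks for c-JUN in Ishikawa, and their part was not tested.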

How the results depend on the processing

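Of 78 values under alternatives, over 11 results, 36 were called the same, 40 moved and 2 reversed. A share was the same within the interval of the main value, and a count within 1.5 times of it. The RNAPII difference between treatments was the same if it kept its sign, whatever its size. For the movements below the cause was not tested. Overlap of 50% of the H3K27me3 peak gave TAF1 at 93.9% (Ishikawa) and 50.5% (T-47D), RNAPII in both DMSO replicates at 84.8%, and start sites at 29.5% and 82.1%. H3K27me3 fold enrichment of at least 10 left 658 and 906 regions, 27 in both lines, with T-47D TAF1 at 46.5%, RNAPII at 80.1%, start sites at 10.2% and 67.8%, and developmental regulators at 0.342% and 5.88%. With the E2 lists there were 6811 and 4 regions, 0 in both lines, with DMSO TAF1 at 95.1% and 0%, RNAPII at 0%, start sites at 74.0% and 0%, and developmental regulators at 24.4% and 0%. The widest 25% of H3K4me3 peaks gave TAF1 at 99.0% and 59.1% and RNAPII at 90.8%. TAF1 or RNAPII peaks of fold enrichment at least 10 gave 79.0%, 7.35% and 66.3%. Start sites within 1000 bp gave 29.7% and 83.1%. H3K27me3 peaks wider than 100 bp, which all were in these regions, and removal of regions in the 3 short lists moved no value.

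Chosen after seeing the data, a T-47D H3K27me3 list shortened to the Ishikawa length left 2177 regions, 215 in both lines, with TAF1 at 54.2%, RNAPII at 87.3%, start sites at 72.3% and developmental regulators at 7.49%. Without chromosomes 10 and 12, 23.2% of the Ishikawa regions were at start sites. RNAPII in either DMSO replicate alone ranged from 83.6% to 99.4%. The E2 minus DMSO difference in RNAPII ranged from -5.07 (without DMSO replicate 2) to 10.7 (without DMSO replicate 1), and was -0.649 without E2 replicate 1. With the replicate block (paired by number, 4 assignments, smallest possible p = 0.5) it was 2.82 (exact permutation p = 1). Peak lists without depth limit every comparison of lines.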
